A study of Mus musculus with 2 samples.

Results

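The cytosolic ribosomal protein genes were examined in a CUT&Tag map of ATF4 in primary neurons cultured from cortex and hippocampus of embryonic C57BL/6 mice. Members were the protein-coding genes of the RefSeq GRCm38.p6 table whose symbol starts with Rpl or Rps and a digit, together with Rpsa, Rplp0, Rplp1 and Rplp2. Symbols of the S6 kinases (Rps6k), Rps19bp1 and Rps23rg1 were left out. The rule gave 89 genes, 56 of the large and 33 of the small subunit, of 21887 protein-coding genes on chromosomes that held peaks. The 89 include 8 listed paralogs, so they are not 89 different core proteins of the ribosome. The rule reads symbols only and uses no measured value, but the gene family was picked with earlier results of these data known. The series holds 1 ATF4 library and 1 IgG library, each of neurons described without any treatment in the labels, with the latter not analysed here. With 1 library there was no replicate, no value has a replicate error and no condition was compared. The cell type was not checked, since a peak list does not measure expression.

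The ribosome is built from a large and a small subunit, each a core of ribosomal RNA covered by ribosomal proteins, and a neuron needs all of these proteins in near-equal amounts. Their mRNAs begin with a tract of pyrimidines (the TOP motif), through which their translation follows mTORC1 activity. ATF4 is a bZIP transcription factor that is made when eIF2 is phosphorylated, at a time when most protein synthesis is turned down. It is best known for binding composite elements with C/EBP partners at genes of amino acid synthesis, amino acid transport and tRNA charging.

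In CUT&Tag, the antibody directs a transposase to the DNA around the protein, and the cut fragments are sequenced. The authors deposited 7873 peaks, each with a position, a summit, a fold enrichment over the background that the peak caller estimated (a ratio), and the -log10 of a p-value and a q-value. Fold enrichment ran from 2.94 to 43.8, with a median of 4.33. The number of fragments stacked at a summit was recovered from fold enrichment and p-value, and the lowest number behind any peak was 3. Intervals of fragments are exact Poisson intervals and those of shares are Clopper-Pearson intervals, both at 95%. They cover counting error only, because PCR copies are not independent molecules.

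Of the 89 ribosomal protein genes, 18 had an ATF4 summit within 1 kb of either end of the gene, a gene-end peak in the following (20.2%, interval 12.4% to 30.1%). Over all protein-coding genes the share was 8.13%, or 1780 genes. Among the 18 were Rpl7, Rpl9, Rpl11, Rpl27, Rpl36a, Rpl36al, Rpl41, Rplp1 and Rplp2 of the large subunit, and Rps12, Rps19, Rps21, Rps23, Rps26, Rps27a and Rps29 of the small subunit. The other 71 genes had no gene-end peak, which means only that none was detectable at this depth. No test was made of the list against other genes, and 1 library cannot show whether the same genes would carry peaks again.

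The DNA around the start of 5 of these genes is shown because a called peak covers it, in whole or in part. The sequences are from RefSeq (GRCm38.p6) and run from 150 bases before to 30 bases after the annotated start, 5′ to 3′ on the strand of the gene. Capitals mark the bases that lie inside the called peak.
Rpl36a (chrX:134585504-134585683, + strand): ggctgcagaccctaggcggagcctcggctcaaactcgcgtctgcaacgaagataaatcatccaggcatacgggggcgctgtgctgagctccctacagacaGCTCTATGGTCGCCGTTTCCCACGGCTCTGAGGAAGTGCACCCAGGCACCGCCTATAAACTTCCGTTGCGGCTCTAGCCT
Rpl27 (chr11:101442095-101442274, + strand): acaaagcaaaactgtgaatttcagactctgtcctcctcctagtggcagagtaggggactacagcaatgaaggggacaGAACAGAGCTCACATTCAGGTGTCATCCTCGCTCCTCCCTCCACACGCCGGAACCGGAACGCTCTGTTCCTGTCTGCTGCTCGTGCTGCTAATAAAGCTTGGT
Rps23 (chr13:90922972-90923151, + strand): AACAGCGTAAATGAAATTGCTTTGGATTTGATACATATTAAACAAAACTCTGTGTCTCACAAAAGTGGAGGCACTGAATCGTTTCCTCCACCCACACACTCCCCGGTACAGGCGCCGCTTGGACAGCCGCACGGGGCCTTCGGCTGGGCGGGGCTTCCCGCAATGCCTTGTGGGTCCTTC
Rps26 (chr10:128626477-128626656, - strand): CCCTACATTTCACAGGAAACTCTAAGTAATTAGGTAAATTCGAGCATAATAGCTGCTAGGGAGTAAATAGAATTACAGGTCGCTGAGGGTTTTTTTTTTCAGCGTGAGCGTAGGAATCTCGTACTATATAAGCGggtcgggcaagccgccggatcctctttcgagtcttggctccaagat
Rplp2 (chr7:141447501-141447680, + strand): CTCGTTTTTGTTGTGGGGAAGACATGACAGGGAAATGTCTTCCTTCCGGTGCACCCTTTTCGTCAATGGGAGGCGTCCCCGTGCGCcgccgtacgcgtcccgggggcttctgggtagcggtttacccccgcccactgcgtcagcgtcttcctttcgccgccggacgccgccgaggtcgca
The Rps23 stretch lay inside its peak over its full length of 180 bases. In Rpl36a the peak began 50 bases before the start and in Rps26 it ended shortly before it, so that 80 and 134 of the 180 bases were covered. Of these 5 peaks, those of Rpl36a and Rpl27 had their summits at the start itself, 1 bp before and 16 bp after it.

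The highest fold enrichment at a ribosomal protein gene was found at Rpl7, which encodes a large subunit protein. Its peak (chr1:16104741-16105013) reached a fold enrichment of 9.19 at q = 4.32e-11, with 12 fragments at the summit (interval 6.20 to 21.0), 460 bp outside the gene. It ranked 299th of the 7873 peaks by fold enrichment. Rpl41, which encodes an unusually short and basic peptide of the large subunit, had a peak at each end. The peak beyond its far end (chr10:128547580-128547838) reached 7.90-fold enrichment on 11 fragments (q = 1.10e-08). The peak at its start, 43 bp inside the gene, reached 4.61-fold enrichment on 6 fragments (q = 0.00241). Rpl41 was the only one of the 89 genes with 2 gene-end peaks. Rps19, the gene most often mutated in Diamond-Blackfan anaemia, carried the strongest peak of the small subunit. That peak (chr7:24884177-24884467) lay 315 bp upstream of the start and reached 7.87-fold enrichment on 10 fragments (interval 4.80 to 18.4, q = 1.50e-08).

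Rpl36a and Rpl27, both of the large subunit, had peaks of almost equal fold enrichment, with summits at their starts. The Rpl36a peak (chrX:134585604-134585872) reached 6.92-fold enrichment on 7 fragments (q = 1.25e-07), and the Rpl27 peak (chr11:101442172-101442467) 6.87-fold on 8 fragments (q = 7.39e-07). Rps29, a zinc-binding protein of the small subunit head, followed with a fold enrichment of 6.15 (q = 1.88e-06), and Rpl9 of the large subunit with 6.01 (q = 4.92e-06), each on 6 fragments. These 7 genes, Rpl7, Rpl41, Rps19, Rpl36a, Rpl27, Rps29 and Rpl9, were the members whose gene-end peak reached a -log10 q of 5 (7.87% of the 89, interval 3.22% to 15.5%). Over all protein-coding genes 2.74% had such a peak.

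The next peaks were lower. Rplp1, which with Rplp2 forms the flexible stalk that recruits elongation factors, had a fold enrichment of 5.87 and 7 fragments. Rps27a, whose product is made as a fusion with ubiquitin, and Rps23, a protein of the decoding centre, each had 5.27 on 5 fragments. Rpl11, which with Rpl5 and 5S rRNA can bind the p53 regulator Mdm2, had 4.26 on 4 fragments. Of these stalk and 5S partners, Rplp0 and Rpl5 had no gene-end peak, with nearest summits at 69566 bp and 172427 bp.

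The weakest peaks rested on 3 fragments each, the smallest number in the library. They were found at Rps12, Rpl36al, Rps26, Rps21 and Rplp2, with fold enrichments from 3.46 at Rplp2 to 3.62 at Rps12 and Rpl36al, and q-values from 0.00450 to 0.0151. Rps26 contacts the mRNA on its way out of the small subunit, and Rpl36al is a close paralog of Rpl36a. The interval of 3 fragments ran from 0.619 to 8.77.

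**Figure D1:**
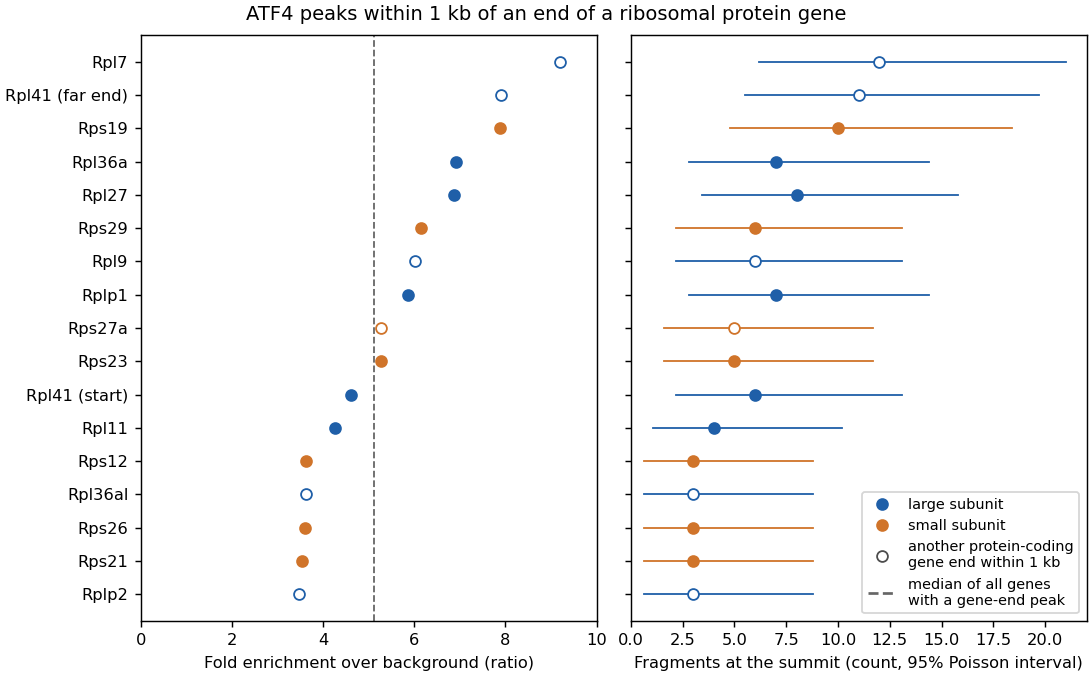
Fold enrichment (left, ratio) and fragments at the summit with exact 95% Poisson intervals (right, count) of 17 peaks within 1 kb of an end of a ribosomal protein gene, blue for the large and orange for the small subunit. Open circles are peaks that also lie within 1 kb of another protein-coding gene end, the dashed line is the median of 5.12 over all genes with a gene-end peak, and the intervals of neighbouring peaks overlap throughout.

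As a group, the peaks of ribosomal protein genes were about as strong as those of other genes. The strongest gene-end peak of each of the 18 genes had a median fold enrichment of 5.27 (range 3.46 to 9.19), against 5.12 (range 3.29 to 31.0) over the 1780 protein-coding genes with such a peak. The median number of fragments was 5 in both sets. Peaks of 3 fragments made up 27.8% of the 18 and 21.0% of all, and those reaching a -log10 q of 5 made up 38.9% and 33.7%.

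The large and the small subunit each had 9 genes with a gene-end peak. That was 16.1% of the 56 large subunit genes (interval 7.62% to 28.3%) and 27.3% of the 33 small subunit genes (interval 13.3% to 45.5%). The intervals overlap, and the difference was not tested. A peak that reached a -log10 q of 5 was found at 5 large subunit genes (8.93%, interval 2.96% to 19.6%) and 2 small subunit genes (6.06%, interval 0.743% to 20.2%). Of these peaks, 3 of the large subunit, at Rpl7, Rpl41 and Rpl9, were shared with another protein-coding gene end, which leaves 2 genes in each subunit with an unshared one. With summits up to 3 kb from an end, 15 large subunit genes (26.8%, interval 15.8% to 40.3%) and 10 small subunit genes (30.3%, interval 15.6% to 48.7%) had a peak. For the 9 genes of each subunit within 1 kb, the median fold enrichment was 6.01 for the large and 4.52 for the small subunit. With the annotated start in place of either end, 7 of 43 large subunit genes (16.3%) and 4 of 25 small subunit genes (16.0%) had a peak.

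The strand and the annotated starts of 68 of the 89 genes were given by the RefSeq promoter table, among them 12 of the 18 genes with a gene-end peak. In 11 of these 12 a peak lay at the start, including Rpl41, which had a further peak at its far end. Rps12 was the exception, with its summit 816 bp beyond the far end of the gene. Over all protein-coding genes with a known strand and a gene-end peak, 91.4% had it at the start, against 91.7% here. The 11 start peaks had 6 summits upstream of the start, from 1 bp at Rpl36a to 722 bp at Rpl36al, and 5 inside the gene, at Rpl27, Rpl41, Rps21, Rpl9 and Rpl11. Among genes in the promoter table, a summit within 1 kb of a start was found for 16.2% of the ribosomal protein genes (11 of 68, interval 8.36% to 27.1%) and for 8.20% of all protein-coding genes. For the remaining 6 genes, among them Rpl7, Rps29, Rplp1 and Rps27a, the strand was not in the table, and their peaks were placed relative to the nearer end only.

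**Figure D2:**
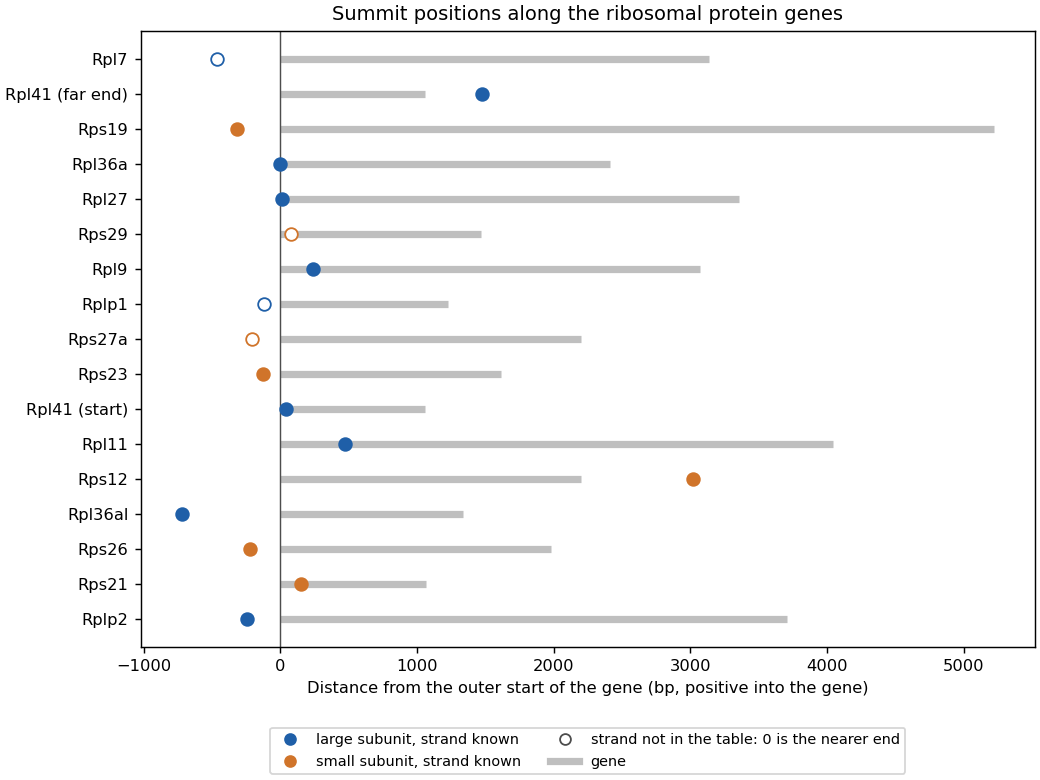
Position of 17 summits (circle) relative to the gene (grey bar), in bp from the outer start, blue for the large and orange for the small subunit. Open circles are 4 genes without a strand in the table, drawn from the nearer end, and the summits of Rps12 and of the second Rpl41 peak are the ones beyond the far end.

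Ribosomal protein genes were shorter than protein-coding genes in general, with a median length of 3164 bp against 17169 bp over all protein-coding genes. Counting summits anywhere inside the gene as well added none of the 89 (20.2%), while the share of all protein-coding genes rose from 8.13% to 17.8%. When each peak was given to whichever protein-coding gene ended nearest to its summit, 24 ribosomal protein genes received a peak (27.0%, interval 18.1% to 37.4%), against 25.1% of all. For peaks close to gene ends the shares were thus 20.2% and 8.13%, and under these other assignments the interval of the former included the share of the latter. Among the 3460 protein-coding genes of a length between the shortest and the longest of the 18, 6.88% had a gene-end peak.

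**Figure D3:**
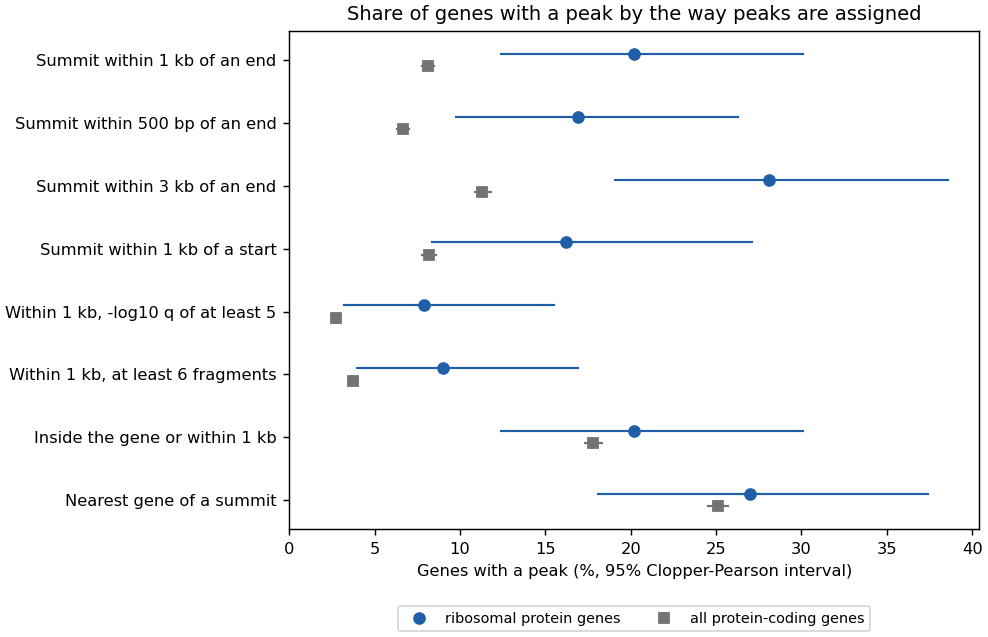
Share of genes with a peak (%, 95% Clopper-Pearson interval) for the 89 ribosomal protein genes (blue circles) and all protein-coding genes (grey squares) under 8 ways of assigning peaks; the start row uses 68 and 17492 genes. The shares are 20.2% and 8.13% for summits within 1 kb of an end, and 27.0% and 25.1% when a peak goes to the nearest gene.

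The count depended on the 1 kb limit. With a limit of 3 kb, 25 of the 89 genes (28.1%) and 11.3% of all protein-coding genes had a peak. Within 1 kb, the farthest summit counted lay at 816 bp (Rps12), and 16 of the 19 peaks lay within 500 bp. Just outside the limit were Rpl7l1, a paralog of Rpl7, at 1265 bp, and Rps15a at 1355 bp. The peak near Rpl7l1 had a fold enrichment of 6.27 on 7 fragments, and that near Rps15a had 4.26 on 4 fragments. In all, 7 genes had their nearest summit between 1 and 3 kb from an end. For the 89 genes, the median distance from a gene end to the nearest summit was 36.8 kb, against 64.8 kb over all protein-coding genes.

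Of the 18 genes, 6 had a gene-end peak that reached a further protein-coding gene end by the same 1 kb limit (33.3%), a share near the 33.0% of all protein-coding genes with a gene-end peak. These were Rpl7, Rpl9, Rpl41, Rpl36al and Rplp2 of the large subunit and Rps27a of the small subunit. Rpl9 shared its peak with Lias, which encodes lipoic acid synthetase, with the summit at 238 bp from Rpl9 and 304 bp from Lias. Rps27a was paired with Clhc1 at 210 bp and 300 bp, and Rpl7 with the retinol dehydrogenase gene Rdh10 at 460 bp and 989 bp. In the other 3 pairs the neighbour was nearer: Pidd1, a gene of the p53 death response, lay at 156 bp from the summit and Rplp2 at 242 bp. Zc3h10 was 319 bp from the far-end summit of Rpl41, which was itself 421 bp away, and Mgat2, an enzyme gene of N-glycan synthesis, was at 631 bp against 722 bp for Rpl36al. For these peaks the list does not say which gene end they belong to. With only peaks that touched a single protein-coding gene, 13 of the 89 genes (14.6%, interval 8.01% to 23.7%) and 5.48% of all protein-coding genes kept a gene-end peak.

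Ribosomal protein genes also lay close to other genes more often than protein-coding genes in general. An end of another protein-coding gene was within 1 kb of an end of 32 of them (36.0%), against 24.8% of all. Of these 32 genes, 8 had a gene-end peak (25.0%, interval 11.5% to 43.4%), and of the 57 without such a neighbour 10 did (17.5%, interval 8.75% to 29.9%). Over all protein-coding genes the 2 shares were 14.2% and 6.12%. Among the ribosomal protein genes themselves, 4 pairs lay within 100 kb of each other. In 2 of them both genes had a gene-end peak, Rpl41 with Rps26 at 75.4 kb and Rps29 with Rpl36al at 23.5 kb, and in the other 2 neither gene had one. The peaks of Rps26 and Rpl36al rest on 3 fragments each. How often close pairs of other protein-coding genes both had a peak was not counted.

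Non-coding genes lay at some of the peaks as well. The Rps29 summit was 188 bp from an end of Rn7s1, a gene of the 7SL RNA of the signal recognition particle. The Rps21 summit was 5 bp from an end of the microRNA gene Mir3091. Ribosomal protein genes often carry small nucleolar RNA genes in their introns, and the Rps12 summit, beyond the far end of the gene, was 980 bp from an end of Snora33.

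The promoter windows of the table, from 250 bases before to 50 after the start, were searched for motifs by their letters. TGATGNAA, a form of the composite element of ATF4 with C/EBP, was searched on both strands and was found in 0 of the 68 ribosomal protein gene windows. It was present in 3.68% of the windows of 17492 protein-coding genes and in 4.06% of all 27025 gene windows. The full cAMP response element TGACGTCA, on both strands, was found in 5 of the 68 (7.35%), against 2.33% of protein-coding genes. None of these 5, Rpl13, Rpl18, Rpl26, Rpl27a and Rps9, had a gene-end peak, where 20.2% of the members and 8.13% of all protein-coding genes did. With 5 genes this is not read as a result, and the share among other genes with the element was not counted. The sites of the 5 members are shown with 10 bases on each side, the motif in capitals, because they are the only windows of the group with this element.
Rpl13 (chr8:123102316-123102343, + strand): cgggttcgcgTGACGTCActtccctttc
Rpl18 (chr7:45717982-45718009, + strand): cgcgctcatgTGACGTCAcccgtgcacc
Rpl26 (chr11:68901422-68901449, + strand): ctccgagggaTGACGTCAggacccctcg
Rpl27a (chr7:109519088-109519115, + strand): ccgggagccgTGACGTCAggagcccttc
Rps9 (chr7:3703974-3704001, + strand): cggtgcgtgaTGACGTCActacaaggcg
The motifs began 24 to 134 bases before the start given in the promoter table. For Rpl18 and Rps9 that start lies inside the gene as the gene table bounds it, and so do their motifs. Measured from the bounds of the gene table, the nearest summit lay 1.90 kb from an end of Rpl26 and between 25.5 and 269 kb from the ends of the other four. These letter matches describe the sequence only, and a window without them can hold other forms of the elements.

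Motifs common in promoters of this gene family were searched in the windows of the 11 genes with a start peak and of the 57 others. The summit of a start peak can lie outside the window, as at Rpl11 (475 bp inside the gene) and Rpl36al (722 bp upstream). GGGCGG (SP1) was found on either strand in 8 of the 11 windows and in 31 of the 57 others, against 46.3% of protein-coding genes. CCGGAAGT (ETS family) was found on either strand in 2 of the 11, Rpl11 and Rpl41, and in 10 of the 57, against 5.28%. AAGATGGC (YY1), also on both strands, was found in 0 of the 11 and 6 of the 57, against 3.21%. CTTTNC, a short form of the pyrimidine tract, was searched on the strand of the gene, beginning within 15 bases of the annotated start. It was found in 0 of the 11 and 14 of the 57, against 3.81%. A window without this string can hold another pyrimidine tract, so 0 of the 11 does not mean that these genes lack one. None of these motifs contains another, and the differences between the windows of genes with and without a start peak were not tested.

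Other genes of the translation machinery were set beside the ribosomal protein genes. Of 78 genes of the mitochondrial ribosome (Mrpl and Mrps), 8 had a gene-end peak (10.3%, interval 4.53% to 19.2%), led by Mrpl54, Mrpl47 and Mrps26 with fold enrichments of 16.6, 9.78 and 8.28. Of 75 ribosome biogenesis genes 14 did (18.7%, interval 10.6% to 29.3%), led by Gtpbp4 at 10.6, Mphosph10 at 10.0 and Nop14 at 9.22, which act in the assembly of the large or small subunit. Of 23 other genes whose transcripts begin with a pyrimidine tract, 9 did (39.1%, interval 19.7% to 61.5%). Their strongest peaks were at the snoRNA host gene Gas5 (6.06), at Eef1a1, the elongation factor that delivers aminoacyl-tRNA (5.48), and at the histone chaperone gene Nap1l1 (5.27). The interval of the ribosomal protein genes overlaps each of these 3. The peaks at Mrpl54, Mrpl47, Mphosph10, Nop14 and Gas5, like that at Rpl7, were shared with another protein-coding gene end. Among the strongest peaks of each gene that were not shared, the highest fold enrichment was 7.87 at Rps19 for the ribosomal protein genes, 8.28 at Mrps26 for the mitochondrial list and 10.6 at Gtpbp4 for the biogenesis list.

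**Figure D4:**
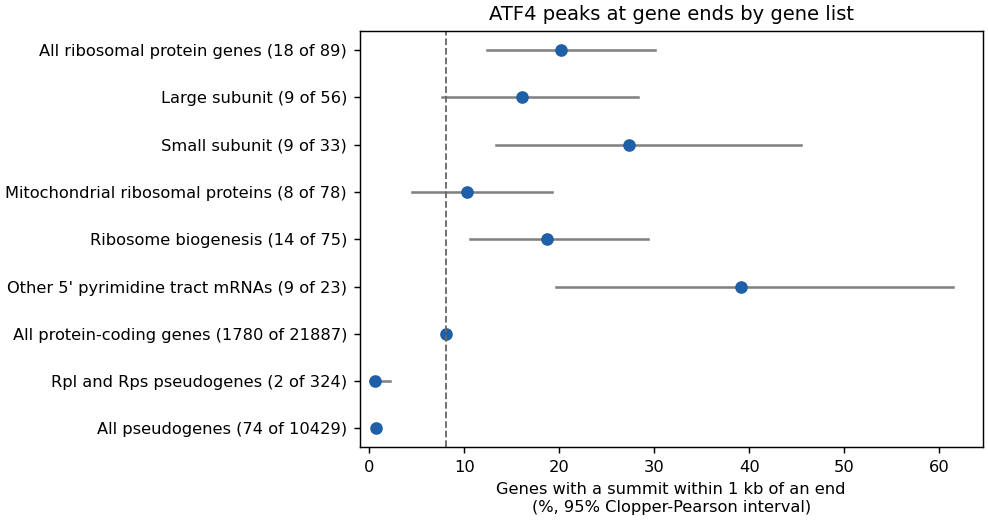
Share of genes with a summit within 1 kb of either end (%, point) with 95% Clopper-Pearson intervals (line) for the ribosomal protein genes, their subunits, other translation lists and pseudogenes, with the dashed line at the 8.13% of all protein-coding genes. With peaks of any q-value counted, the ribosomal protein genes stand at 20.2%. The mitochondrial ribosomal protein genes are at 10.3% and the other pyrimidine tract genes at 39.1%, an order that differs at a -log10 q of at least 5.

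Ribosomal protein genes have many processed copies in the mouse genome, and reads from such copies can be hard to place. Of 324 annotated Rpl and Rps pseudogenes, 2 had a summit within 1 kb of an end (0.617%, Clopper-Pearson 95% interval 0.0748% to 2.21%), where 0.710% of all 10429 pseudogenes did. These were Rpl29-ps6 and Rpl15-ps1, at 815 bp and 711 bp from the summit, each with a fold enrichment of 3.68 on 3 fragments. Their parent genes, Rpl29 and Rpl15, had no gene-end peak. How the aligner placed reads with several matches is not given in the sources used here, and its part in the counts of the parent genes was not tested.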

How the data were processed

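CUT&Tag was performed by the authors on about 100000 primary mouse neurons per library, with an ATF4 or an IgG antibody, and 1 peak list of the ATF4 library was used. The labels' processing notes name FastQC, BWA, MACS2 2.1.2, deepTools and mm10 without their roles. The threshold and any use of IgG in peak calling are not given in the sources used here, so fold enrichment was not read as a value over IgG. The deposited values are a fold enrichment (ratio), -log10 p and -log10 q for each peak. The deposited display score held no further information, being the whole-number part of 10 times the -log10 q in all 7873 peaks. The library's total depth is unknown.

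Whole numbers of fragments were solved from fold = (fragments + 1) / (background + 1) and a Poisson upper tail, accepted within 0.001 of the -log10 p, which succeeded for 100% of peaks and assumes the MACS2 formulas. Summits were joined to the RefSeq GRCm38.p6 gene table (mm10 coordinates) within 1 kb of either gene end. The strand came from the RefSeq promoter table. Members and lists were chosen with earlier results of these data known, and the gene table held 8 of the 10 listed paralogs. The genes named were set by rule: members with a gene-end peak, the 3 nearest outside 1 kb, genes sharing a peak, and the 3 highest of each list; Rplp0, Rpl5, Rpl13, Rpl18, Rpl26, Rpl27a, Rps9, Rpl29, Rpl15 and the genes of close pairs were named after their values were seen. Some genes and a short list of ribosome parts are not reported here; the genes count in all shares. No test was run, since there is 1 library. Alternatives were other windows, peak filters, assignments and member lists. Scripts were tested on simulated data. Computations were run in Python 3.11.15 with scipy 1.17.1, numpy 2.4.6 and pandas 2.3.3, and figures drawn with matplotlib 3.10.9.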

Additional observations from a re-analysis of the deposited data

How the results depend on the processing

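Of 49 values under alternatives, 38 stayed within 1.5 times the reported share, 4 of them at exactly 1.5 times, or, for the median fold enrichment, within its spread over genes; the leaving out of Rpl36al with the other paralogs, the counting of Rps23rg1 as a member and the leaving out of 4 further symbols were among them, the last 2 chosen after seeing the data, as was the count without shared peaks. Counting only peaks that reached a -log10 q of 5, the shares were 7.87% of all members, 8.93% of the large subunit, 6.06% of the small subunit and 2.74% of protein-coding genes. With at least 6 fragments they were 8.99%, 10.7%, 6.06% and 3.74%. Stricter filters keep fewer peaks by construction. With peaks at or above the median fold enrichment, the shares were 13.5% of members, 10.7% of the large and 18.2% of the small subunit; these and the 10.7% with at least 6 fragments are the ones at exactly 1.5 times. A 3 kb window gave 26.8% for the large subunit, and annotated starts alone gave 16.0% for the small subunit. For all protein-coding genes, the nearest-gene assignment gave 25.1% and counting summits inside genes gave 17.8%, the latter wider by construction. The nearest-gene assignment takes in distant peaks but gives a shared peak to 1 gene only. The peaks counted for Rpl36al and Rplp2 go to nearer neighbours under it. All members together stood above all protein-coding genes under each of these settings, by as little as 27.0% against 25.1%, but the large subunit alone stood below them under the nearest-gene assignment (21.4% against 25.1%) and with summits inside genes (16.1% against 17.8%), where the small subunit had 36.4% and 27.3%. No paired analysis was possible because 1 library was used. With 3 fragments as the smallest peak, a weaker signal at the 71 other genes, if any, was not detectable. Whether the peaks mark ATF4 binding was not tested, since the IgG library was not analysed.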
